A study of Mus musculus with 15 samples.

Results

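The 10 core circadian clock genes Arntl, Clock, Per1, Per2, Per3, Cry1, Cry2, Nr1d1, Nr1d2 and Dbp were followed in whole mouse kidney. They were chosen by name as the transcription factors and repressors of the clock loops, and they are 10 of the 13933 genes with an annotated transcript in the files of all mice. Kidneys of 15 male wild-type C57BL/6 mice, bought at 8 weeks of age, were sequenced after 28 days of treatment. The 5 Control mice received saline by osmotic pump and water by gavage, the 5 AngII mice received angiotensin II at 500 ng/kg/min by pump and water by gavage, and the 5 AngII+QDG mice received the same angiotensin II together with QDG by gavage at 1.145 g/kg/d. Angiotensin II is a peptide hormone that raises blood pressure, and QDG is Qingda granule, a preparation of Gastrodia elata, Uncaria rhynchophylla, Scutellaria baicalensis and Nelumbo nucifera. The study asked whether QDG eases kidney damage caused by hypertension, and the comparisons here ask whether the clock genes differed between the groups and whether single mice stood at different points of the daily cycle. The mice lived under a light and dark cycle, and the hour at which the kidneys were taken is not given in the sources used here.

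In the clock, CLOCK and ARNTL (BMAL1) bind together to E-box sequences and switch on the Per and Cry genes, whose proteins return to the nucleus and shut CLOCK and ARNTL down. In a linked loop, the nuclear receptors NR1D1 (REV-ERB alpha) and NR1D2 (REV-ERB beta) repress Arntl, and DBP carries the rhythm to output genes through D-box sequences. In mouse peripheral tissues, Nr1d1, Nr1d2, Dbp and Per3 are known to peak by day, and Arntl peaks near the end of the night. In the kidney the clock is known for its control of sodium transport and of the daily course of blood pressure.

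The promoters are shown because the E-box and the D-box are the letters through which these loops act. RefSeq promoter windows on GRCm38.p6, the 250 bases before each start, were matched for 9 of the 10 genes, in 13 windows. The E-box was searched as CACGTG, the D-box as TTATGTAA or TTACGTAA, and the ROR/REV-ERB core as TAGGTCA, each on both strands. The E-box lay in windows of Per1 and Cry1, the D-box lay in the window of Per3 as 2 copies, and the ROR/REV-ERB core lay in 0 of the 13 windows. Of 32851 promoters of the same length, 6.02% held the E-box, 0.931% the D-box and 2.23% the ROR/REV-ERB core. The stretch free of annotated exons is printed 5′ to 3′ with the matched letters in capitals, together with Ciart, a clock repressor of the wider pathway whose window held 3 E-boxes.
Per1, chr11:69098699-69098947, plus strand: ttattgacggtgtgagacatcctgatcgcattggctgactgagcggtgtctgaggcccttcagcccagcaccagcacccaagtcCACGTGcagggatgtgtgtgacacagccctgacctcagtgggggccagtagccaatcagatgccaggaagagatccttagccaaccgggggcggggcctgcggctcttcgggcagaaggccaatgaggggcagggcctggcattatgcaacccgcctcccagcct
Cry1, chr10:85185065-85185304, minus strand: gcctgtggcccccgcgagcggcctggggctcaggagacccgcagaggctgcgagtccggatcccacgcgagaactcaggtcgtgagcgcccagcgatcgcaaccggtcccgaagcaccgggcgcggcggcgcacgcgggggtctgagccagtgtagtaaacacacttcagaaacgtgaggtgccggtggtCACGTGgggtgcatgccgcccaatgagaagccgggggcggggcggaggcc
Per3, chr4:151044666-151044915, minus strand: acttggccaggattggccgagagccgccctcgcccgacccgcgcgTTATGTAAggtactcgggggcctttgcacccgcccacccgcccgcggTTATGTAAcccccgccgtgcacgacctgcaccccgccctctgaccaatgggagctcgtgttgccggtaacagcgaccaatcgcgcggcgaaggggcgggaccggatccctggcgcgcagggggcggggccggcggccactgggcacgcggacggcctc
Ciart, chr3:95882252-95882478, minus strand: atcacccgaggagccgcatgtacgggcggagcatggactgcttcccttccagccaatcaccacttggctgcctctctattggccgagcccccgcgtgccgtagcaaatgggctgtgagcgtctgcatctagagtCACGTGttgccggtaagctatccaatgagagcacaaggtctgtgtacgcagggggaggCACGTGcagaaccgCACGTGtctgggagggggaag
In Per1 the E-box ran from 166 to 161 bases before the start, and in Cry1 from 60 to 55. The D-boxes of Per3 ran from 205 to 198 and from 158 to 151 bases before the start. A match is a description of letters and was not tested as a binding site.

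Levels are FPKM, a level scaled to transcript length and to sequencing depth, summed over the annotated transcripts of a gene. The spacing of low values gave an estimated depth, in units of 1e6 reads, of 75.03 to 81.3 in Control, 70.7 to 79.3 in AngII and 68.9 to 76.1 in AngII+QDG. The defining kidney markers were present, and the 2 markers of the thick ascending limb (Umod and Slc12a1) summed to between 713 and 1538 FPKM in every kidney. Most of this sum was Umod (695 to 1308 FPKM). Slc12a1 alone ran from 18.0 FPKM in AngII 2 to 230 FPKM in AngII+QDG 3, and Aqp2 of the collecting duct from 63.7 to 278 FPKM. The part of such differences between kidneys in the clock gene values was not tested. Of 4 markers of the adrenal cortex, only Star was listed, at 0.692 to 1.45 FPKM. The 4 adipocyte markers summed to between 0.0444 and 79.0 FPKM, so adipocyte RNA differed widely between kidneys. Of these markers, Adipoq and Ucp1 were highest in AngII 1 (7.69 and 57.6 FPKM) and next in Control 2 (4.13 and 37.4 FPKM). The part of adipocyte RNA in the clock gene values of these kidneys was not tested. In whole tissue, fewer cells of a type and less RNA per cell cannot be told apart. All 5 Control files list 41477 transcripts and all 10 files of treated mice list 42310, so differences from Control cannot be told apart from this difference between the files. Only transcripts in all files were summed, which leaves out 1 transcript of Nr1d2, ENSMUST00000225491, listed in the Control files alone. With all listed transcripts the call of Nr1d1 described next was kept (limma adjusted p = 0.0350). Both listed transcripts of Nr1d1 are in all files, so its values were the same and only the adjustment over the other genes changed. The kept call therefore says nothing about the difference between the files. Mice are numbered within a group in the order of their records, and p-values measure the spread between these 15 mice.

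Nr1d1 was the one clock gene called between groups, a call lost after quantile normalization (limma adjusted p = 0.111), after median scaling (0.0926), with protein-coding transcripts only (0.0595) and in 8 of 15 fits with 1 mouse left out. It was higher in AngII than in Control, with every AngII kidney above every Control kidney, and its mean in AngII+QDG was 31.3 FPKM against 29.2 FPKM in Control. Across the 10 genes, 9 reached at least 1 FPKM in at least 5 mice and entered the fit, and Arntl did not. At a limma adjusted p under 0.05, 1 of the 9 genes was called in AngII versus Control, beside 5.94% of all 12366 genes tested. In AngII+QDG versus AngII 0 of 9 were called by limma, with 2 at an unadjusted p under 0.05, beside 1.81% of all genes called. In AngII+QDG versus Control 0 of 9 were called by limma, with 4 at an unadjusted p under 0.05, beside 0.129% of all genes called. At an unadjusted p under 0.05 alone, 2 of 9 (22.2%) passed in AngII versus Control against 22.7% of all genes. The same 22.2% passed in AngII+QDG versus AngII against 16.4% of all genes, and 44.4% passed in AngII+QDG versus Control against 14.4%. The study's own rule for transcripts was a fold change of at least 2 with p under 0.05. Here it was applied to gene sums on the log2(FPKM + 1) scale, with limma's unadjusted p. It was met by 0, 0 and 1 of the 9 genes in these comparisons, beside 1.04%, 0.817% and 0.728% of all genes. In each comparison 1 of the 9 genes had groups that did not overlap, beside 7.92%, 5.00% and 3.64% of all genes. The shares in AngII versus Control were close to the background in all of these counts.

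**Figure D1:**
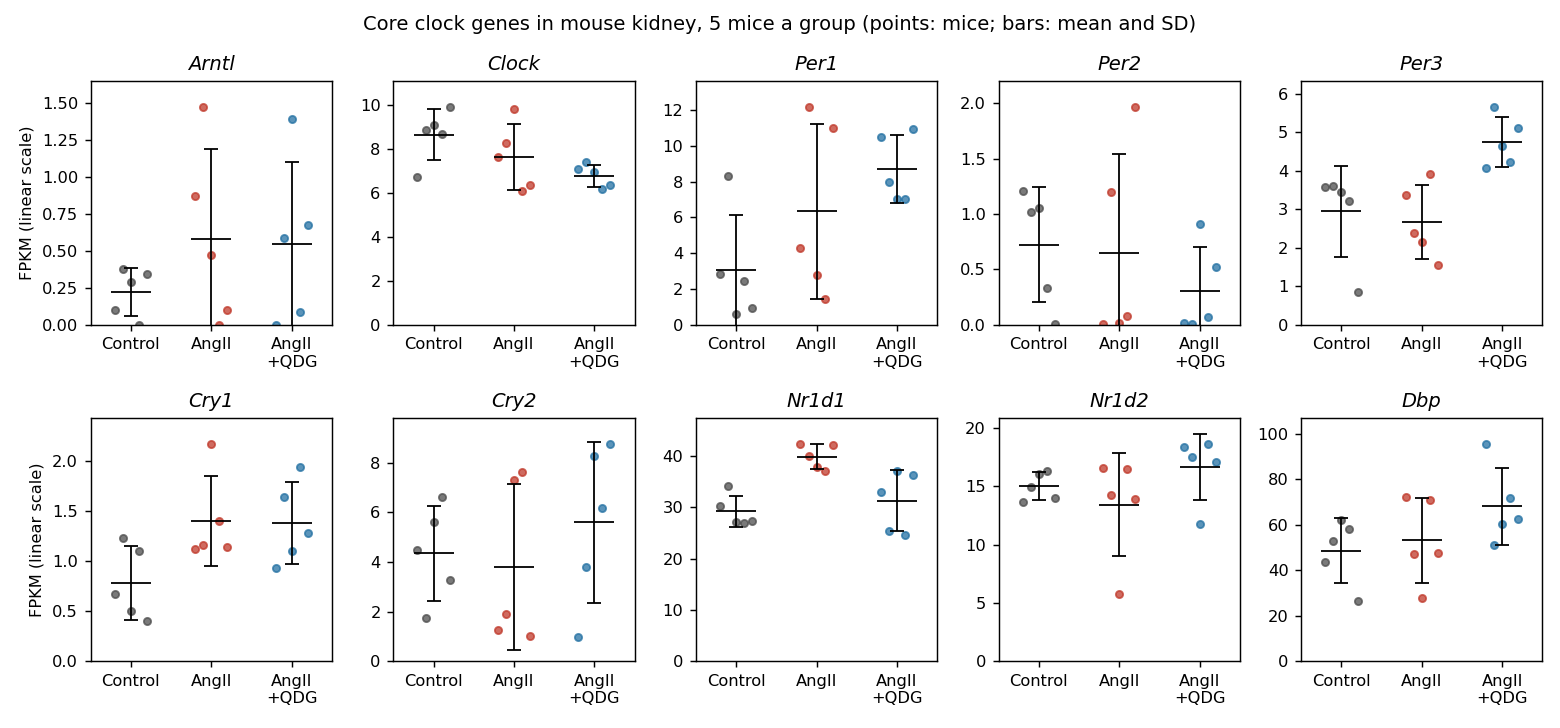
FPKM of the 10 core clock genes in each kidney on linear axes that start at 0 and differ between genes, with 5 mice a group, the mean and the SD, error bars being cut at 0. All 5 AngII kidneys lie above all 5 Control kidneys for Nr1d1, and all 5 AngII+QDG kidneys lie above both other groups for Per3.

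On the log2(FPKM + 1) scale the median difference of the 9 genes was -0.07 in AngII versus Control, 0.35 in AngII+QDG versus AngII and 0.19 in AngII+QDG versus Control. The median over all genes tested was 0.08, -0.02 and 0.06.

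**Figure D2:**
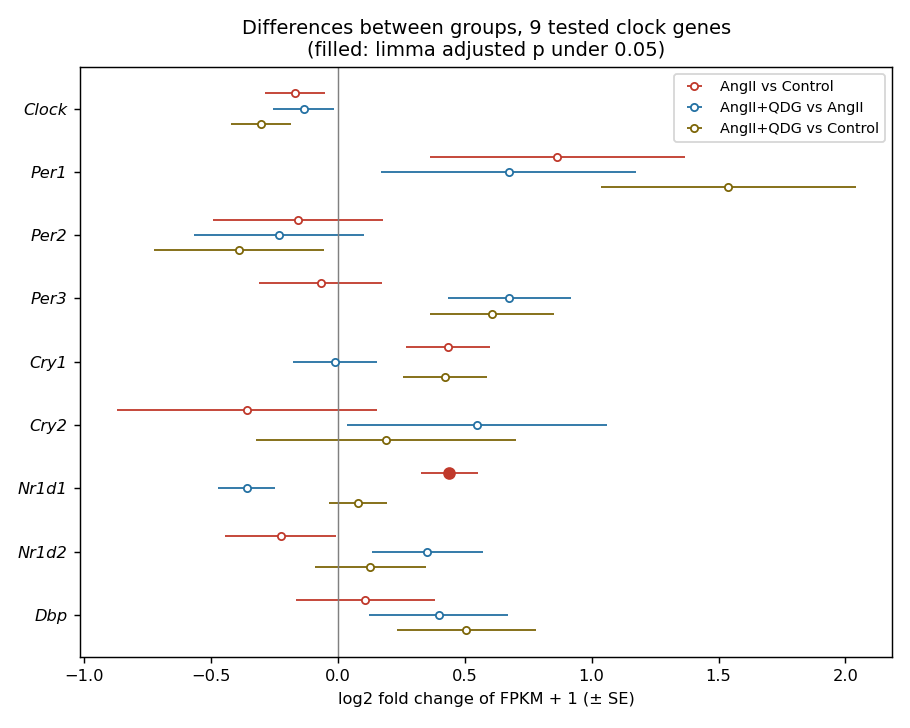
Log2 fold change of FPKM + 1 with its SE for the 9 tested clock genes in the 3 comparisons, a filled point marking a limma adjusted p under 0.05. The filled point is Nr1d1 in AngII versus Control at 0.44, and the widest bars belong to Per1 and Cry2.

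The positive arm of the loop is formed by Arntl and Clock. Arntl (chr7:113207465-113314126, plus strand, coordinates of mm10) was scarce. Its level was 0.0997, 0.376, 0.289, 0 and 0.340 FPKM in the 5 Control kidneys, 0.867, 1.47, 0.469, 0 and 0.0983 FPKM in AngII, and 0, 0.587, 1.39, 0.0883 and 0.673 FPKM in AngII+QDG. The groups overlapped, 3 kidneys were listed at 0, and 2 of 5 kidneys carried most of the signal in each treated group. The estimated reads behind these values ran from 0 to 339 per kidney with a median of 76, and 1 of 6 annotated transcripts was listed. In the fit without a filter on low values, the log2 difference was 0.30 (SE 0.26, limma adjusted p = 0.543) in AngII versus Control and -0.02 (SE 0.26, limma adjusted p = 0.978) in AngII+QDG versus AngII. No difference in Arntl was detectable against this spread and depth.

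Clock encodes the partner of ARNTL and was the steadiest of the low genes. Its level was 6.73, 8.86, 9.10, 8.69 and 9.91 FPKM in Control, 7.65, 8.29, 9.80, 6.09 and 6.36 FPKM in AngII, and 7.07, 7.40, 6.93, 6.18 and 6.35 FPKM in AngII+QDG. The means were 8.66 ± 1.17, 7.64 ± 1.51 and 6.79 ± 0.507 FPKM (SD, n = 5 each). Of the AngII+QDG kidneys, 3 lay within the Control range and the other two lay below it. The log2 difference between AngII+QDG and Control was -0.30 (SE 0.12), with an unadjusted p of 0.0229 that became 0.266 after limma's adjustment over all genes. The gene's transcript ENSMUST00000075159 averaged 4.203 FPKM over the 15 kidneys, ENSMUST00000202122 averaged 1.93 FPKM and ENSMUST00000202651 averaged 1.56 FPKM. The first of these was at 0.0191 FPKM in its lowest kidney, of the AngII+QDG group.

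The Per genes encode the period proteins that, with the CRY proteins, close the negative loop. Per1 (chr11:69095217-69109960, plus strand), whose promoter holds the E-box printed above, was 2.85, 8.33, 0.602, 2.42 and 0.955 FPKM in Control, 4.29, 12.2, 2.79, 1.44 and 11 FPKM in AngII, and 10.5, 7.96, 7.04, 7.03 and 10.9 FPKM in AngII+QDG. In Control 4 of 5 kidneys lay below 3 FPKM and the other reached 8.33 FPKM, in AngII the kidneys spread over the whole range, and in AngII+QDG all 5 lay at 7.03 FPKM or more. The means were 3.03 ± 3.11, 6.34 ± 4.91 and 8.70 ± 1.90 FPKM (SD, n = 5 each). The log2 difference was 1.54 (SE 0.50) between AngII+QDG and Control, a ratio of the mean FPKM of 2.87, with an unadjusted p of 0.00839 and a limma adjusted p of 0.186. It was 0.87 (SE 0.50, adjusted p = 0.333) in AngII versus Control and 0.67 (SE 0.50, adjusted p = 0.549) in AngII+QDG versus AngII by limma, the latter being 0.35 without AngII 4. Per1 was the one clock gene that met the study's rule, in AngII+QDG versus Control, and Control 2 and the AngII+QDG group overlapped.

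Per2 was the scarcest gene after Arntl, with a lowest, median and highest level of 0.00668, 1.02 and 1.21 FPKM in Control. The same values were 0.00432, 0.0752 and 1.97 FPKM in AngII, and 0.00901, 0.0709 and 0.908 FPKM in AngII+QDG. In every group at least 1 kidney stood near 0 and at least 1 near or above 0.9 FPKM, so the groups overlapped over almost their whole range. The largest of the 3 log2 differences was -0.39 (SE 0.34, limma adjusted p = 0.636), in AngII+QDG versus Control, and it was -1.17 with a pseudocount of 0.1 in place of 1.

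Per3 (chr4:151003652-151044665, minus strand), whose promoter holds the pair of D-boxes, was 3.59, 3.60, 3.45, 3.22 and 0.856 FPKM in Control. It was 3.36, 2.38, 2.16, 3.92 and 1.54 FPKM in AngII, and 4.07, 5.65, 4.64, 4.23 and 5.11 FPKM in AngII+QDG. Every AngII+QDG kidney lay above every kidney of the other groups, and Control 5 stood far below the other Control mice. The means were 2.94 ± 1.18, 2.67 ± 0.957 and 4.74 ± 0.648 FPKM (SD, n = 5 each). The log2 difference was 0.68 (SE 0.24) in AngII+QDG versus AngII, with an unadjusted p of 0.0148 and a limma adjusted p of 0.176. It was 0.61 (SE 0.24) in AngII+QDG versus Control, with an unadjusted p of 0.0256 and a limma adjusted p of 0.279. Without Control 5, whose low value adds to the common estimate of the spread, the difference in AngII+QDG versus Control fell to 0.35, whereas the adjusted p in AngII+QDG versus AngII was 0.0466 by limma. The 4 erythroid markers, which code for haemoglobin chains and for the first enzyme of haem synthesis, summed to 497 to 1189 FPKM in Control, 788 to 1480 FPKM in AngII and 1114 to 2101 FPKM in AngII+QDG, and 1 of the 4 was called in AngII+QDG versus Control by limma. Their part in the values of Per1 and Per3 was not tested.

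Cry1 and Cry2 encode the cryptochromes, the strongest repressors of CLOCK and ARNTL. Cry1 (chr10:85131700-85185064, minus strand) was 0.671, 1.24, 0.502, 1.11 and 0.404 FPKM in Control, 1.121, 1.17, 2.17, 1.40 and 1.14 FPKM in AngII, and 0.935, 1.64, 1.10, 1.94 and 1.28 FPKM in AngII+QDG. Of the Control kidneys, 3 lay below every treated kidney and the other two lay among them. The means were 0.783 ± 0.369, 1.40 ± 0.446 and 1.38 ± 0.408 FPKM (SD, n = 5 each). The log2 difference was 0.44 (SE 0.17) in AngII versus Control, with an unadjusted p of 0.0197 and a limma adjusted p of 0.133, and 0.42 (SE 0.17) in AngII+QDG versus Control, with an unadjusted p of 0.0228 and a limma adjusted p of 0.266. With a pseudocount of 0.1 in place of 1 these differences were 0.82 and 0.80. With 94 to 520 estimated reads per kidney, Cry1 was counted less deeply than Clock.

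Cry2 had the largest residual SD of the 9 tested genes on the log2(FPKM + 1) scale (0.871), just above Per1 (0.852), while the SD as a percentage of the mean was larger for Per2 than for Cry2 in each group. The lowest, median and highest levels were 1.74, 4.48 and 6.61 FPKM in Control, 1.01, 1.90 and 7.61 FPKM in AngII, and 1.00, 6.19 and 8.76 FPKM in AngII+QDG. In AngII, 3 kidneys lay below 2 FPKM and the other two lay above 7 FPKM. The largest of its 3 log2 differences was 0.55 (SE 0.51, limma adjusted p = 0.645), in AngII+QDG versus AngII, which ran from 0.31 without AngII 5 to 0.93 without AngII+QDG 1. Most of the spread came from the transcript ENSMUST00000090559, which ran from 0.0349 to 8.13 FPKM over the 15 kidneys, whereas ENSMUST00000111278 ran from 0.499 to 3.17 FPKM. Reads of assembled transcripts carry no gene name in the files, and whether they hold further reads of Cry2, Per1 and Per2 was not tested. They took 9.67% to 12.03% of all FPKM in a kidney.

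Nr1d1 and Nr1d2 encode the REV-ERB receptors that repress Arntl. Nr1d1 (chr11:98767932-98775333, minus strand) was 30.3, 34.1, 27.2, 27.0 and 27.4 FPKM in Control, 42.4, 39.9, 37.9, 37.1 and 42.1 FPKM in AngII, and 33.0, 25.4, 37.1, 24.6 and 36.3 FPKM in AngII+QDG. All AngII kidneys stood above all Control kidneys, and of the AngII+QDG kidneys 3 stood at 33.0 FPKM or more and the other two below the lowest Control kidney. The means were 29.2 ± 3.08, 39.9 ± 2.39 and 31.3 ± 5.96 FPKM (SD, n = 5 each). The log2 difference was 0.44 (SE 0.11, limma adjusted p = 0.0371) in AngII versus Control, a ratio of the means of 1.36. It was -0.36 (SE 0.11) in AngII+QDG versus AngII, with an unadjusted p of 0.00689 and a limma adjusted p of 0.122. It was 0.08 (SE 0.11, limma adjusted p = 0.795) in AngII+QDG versus Control, and 0.02 to 0.16 with 1 mouse left out. Between 4648 and 8993 estimated reads stood behind each value, so counting error was small.

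The call for Nr1d1 sat close to the threshold. Its log2 difference stayed between 0.35 and 0.50 under every alternative tried, and the limma adjusted p was 0.111 after quantile normalization, 0.0926 after scaling to equal medians and 0.0595 with protein-coding transcripts only. It was between 0.0532 and 0.0863 when Control 1, 3, 4 or 5 or AngII 1, 2, 3 or 5 was left out, and under 0.05 when any of the other 7 mice was left out. The short non-coding transcript ENSMUST00000139220 of Nr1d1, singled out after its values were seen, averaged 0.289 ± 0.0751 FPKM in Control, 1.04 ± 0.129 FPKM in AngII and 0.530 ± 0.154 FPKM in AngII+QDG (SD, n = 5 each). It was at 0.942 FPKM or more in every AngII kidney and at 0.713 FPKM or less in all others, beside 38.8 FPKM of the coding transcript ENSMUST00000064941 in AngII. Exons of Thra, the thyroid hormone receptor on the opposite strand, overlap 263 bases (8.55%) of the Nr1d1 exons, and the kit does not mark strand. Thra averaged 18.4 ± 2.56, 18.7 ± 3.11 and 17.6 ± 1.11 FPKM (SD, n = 5 each), with a log2 difference of 0.01 (SE 0.11, limma adjusted p = 0.961) in AngII versus Control. The 3 podocyte markers summed to 75.1 to 83.4 FPKM in Control, 101 to 127 FPKM in AngII and 98.0 to 125 FPKM in AngII+QDG, and 2 of the 3 were called in AngII versus Control by limma. Their part in the difference of Nr1d1 was not tested.

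Nr1d2 (chr14:18204054-18239127, minus strand) was 13.6, 14.95, 16.1, 16.3 and 14.0 FPKM in Control, 16.5, 14.2, 5.80, 16.5 and 13.9 FPKM in AngII, and 18.4, 17.5, 11.7, 18.6 and 17.1 FPKM in AngII+QDG. AngII 3 and AngII+QDG 3 each stood well below the other 4 mice of their group, and the groups overlapped. The log2 difference was -0.22 (SE 0.22, limma adjusted p = 0.591) in AngII versus Control and 0.35 (SE 0.22, limma adjusted p = 0.457) in AngII+QDG versus AngII. Both rested on AngII 3, without which the first was 0.03, on the other side of 0, and the second was 0.10. Nr1d2 passed the test in none of the 3 comparisons (unadjusted p = 0.130 at the lowest, limma), and whether it differed in response from Nr1d1 was not tested.

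Dbp (chr7:45705088-45710203, plus strand), the output factor that binds D-boxes, was the most abundant of the 10 genes. It was 43.7, 52.8, 62.1, 58.3 and 26.4 FPKM in Control, 72.4, 47.4, 28.0, 70.8 and 47.6 FPKM in AngII, and 95.6, 51.1, 60.3, 71.7 and 62.5 FPKM in AngII+QDG. The groups overlapped, with Control 5 and AngII 3 at the bottom and AngII+QDG 1 at the top. The means were 48.7 ± 14.3, 53.2 ± 18.6 and 68.2 ± 17.0 FPKM (SD, n = 5 each). The log2 difference between AngII+QDG and Control was 0.51 (SE 0.27), with an unadjusted p of 0.0859 and a limma adjusted p of 0.414, and it was 0.31 without Control 5. The transcript ENSMUST00000080885 held most of the signal with an average of 45.8 FPKM, and ENSMUST00000211513, ENSMUST00000210120 and ENSMUST00000211748 averaged 5.71, 3.80 and 1.37 FPKM. Exons of Sphk2, a sphingosine kinase on the opposite strand, overlap 539 bases (18.0%) of the Dbp exons. Sphk2 averaged 11.6 ± 0.542 FPKM in Control, 15.9 ± 1.44 FPKM in AngII and 11.3 ± 1.20 FPKM in AngII+QDG (SD, n = 5 each), and its log2 difference was 0.42 (SE 0.08, limma adjusted p = 0.0115) in AngII versus Control and -0.46 (SE 0.08, limma adjusted p = 0.0153) in AngII+QDG versus AngII. The part of the shared bases in the values of Dbp was not tested.

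By mean FPKM over the 15 kidneys the order ran from Dbp over Nr1d1, Nr1d2, Clock, Per1, Cry2, Per3, Cry1 and Per2 to Arntl. Dbp, Nr1d1 and Nr1d2 together held between 74.4% and 87.6% of the summed FPKM of the 10 genes in each kidney. Neighbours from Clock to Per3 lay within the spread between mice, as did Per2 and Arntl. The residual SD between mice of 1 group, on the log2(FPKM + 1) scale, had a median of 0.405 over the 9 tested genes and 0.228 over all genes. It was 0.871 for Cry2 and 0.852 for Per1, at the 95.3 and 94.9 percentiles of all genes, and 0.185 for Nr1d1 and 0.188 for Clock, at the 38.8 and 39.4 percentiles. Per2 (86.5), Dbp (80.4), Per3 (75.6), Nr1d2 (72.0) and Cry1 (56.9) had percentiles in between.

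Of 26 other genes of the clock pathway, 23 were listed and 22 entered the fit. In AngII versus Control 2 of 22 were called by limma and both were higher in AngII, whereas after quantile normalization or median scaling neither was called and Prkaa2 was, lower in AngII (log2 difference -0.22, adjusted p = 0.0365 and 0.0398). Without rescaling, 7 of 22 passed an unadjusted p of 0.05 (5 higher, 2 lower), and the median log2 difference of the list was 0.06, beside 0.08 over all genes. In AngII+QDG versus AngII 0 of 22 were called by limma, with 3 at an unadjusted p under 0.05, and in AngII+QDG versus Control 0 of 22 were called by limma, with 6 at an unadjusted p under 0.05. The background shares are those given above for the same rules.

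Ciart (Chrono), a repressor of CLOCK and ARNTL whose promoter is printed above, was 0.566, 0.495, 2.72, 1.02 and 0.890 FPKM in Control, 2.18, 2.87, 3.78, 4.81 and 2.78 FPKM in AngII, and 2.81, 1.02, 1.74, 2.24 and 3.51 FPKM in AngII+QDG. In AngII every kidney stood above 4 of the 5 Control kidneys. Its log2 difference was 1.06 (SE 0.27, limma adjusted p = 0.0330) in AngII versus Control and -0.41 (SE 0.27, limma adjusted p = 0.475) in AngII+QDG versus AngII, the latter being -0.25 without AngII+QDG 2. With a pseudocount of 0.1 in place of 1 the first was 1.65. Csnk1e, the kinase casein kinase 1 epsilon that marks PER proteins for breakdown, averaged 2.99 ± 0.672, 4.50 ± 0.514 and 3.99 ± 0.333 FPKM (SD, n = 5 each). Its log2 difference was 0.48 (SE 0.11, limma adjusted p = 0.0268) in AngII versus Control. Both calls sat close to the threshold. By limma, the adjusted p was 0.0719 for Ciart and 0.0554 for Csnk1e after quantile normalization, 0.0677 and 0.0584 after median scaling, and 0.0549 and 0.0696 with only the 2 groups compared. With protein-coding transcripts only it was 0.0641 for Csnk1e. By limma, the adjusted p of Ciart was between 0.0592 and 0.0815 when Control 1, 2, 4 or 5 or AngII 2, 3, 4 or 5 was left out. That of Csnk1e was between 0.0516 and 0.0675 when Control 3 or 4 or AngII 1, 3 or 5 was left out.

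The related kinase Csnk1d averaged 24.8 ± 1.45 FPKM in Control and 28.2 ± 1.01 FPKM in AngII (SD, n = 5 each), with no overlap and a log2 difference of 0.18 (SE 0.05, limma adjusted p = 0.0588). Npas2, a paralogue of Clock that also pairs with ARNTL, had the smallest unadjusted p of the list in both comparisons with AngII+QDG. It averaged 1.15 ± 0.337, 1.29 ± 0.660 and 0.394 ± 0.142 FPKM (SD, n = 5 each), and every AngII+QDG kidney stood below every Control kidney. Its log2 difference was -0.67 (SE 0.18) in AngII+QDG versus AngII, with an unadjusted p of 0.00225 and a limma adjusted p of 0.0727, and -0.62 (SE 0.18) in AngII+QDG versus Control, with an unadjusted p of 0.00417 and a limma adjusted p of 0.148. Without AngII 4 the first of these passed, at a limma adjusted p of 0.0301. With a pseudocount of 0.1 they were -1.39 and -1.35. Bhlhe40, another repressor at the E-box, had log2 differences of 0.27 in AngII versus Control and 0.30 in AngII+QDG versus Control (SE 0.12 each), with limma adjusted p-values of 0.195 and 0.275.

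**Figure D3:**
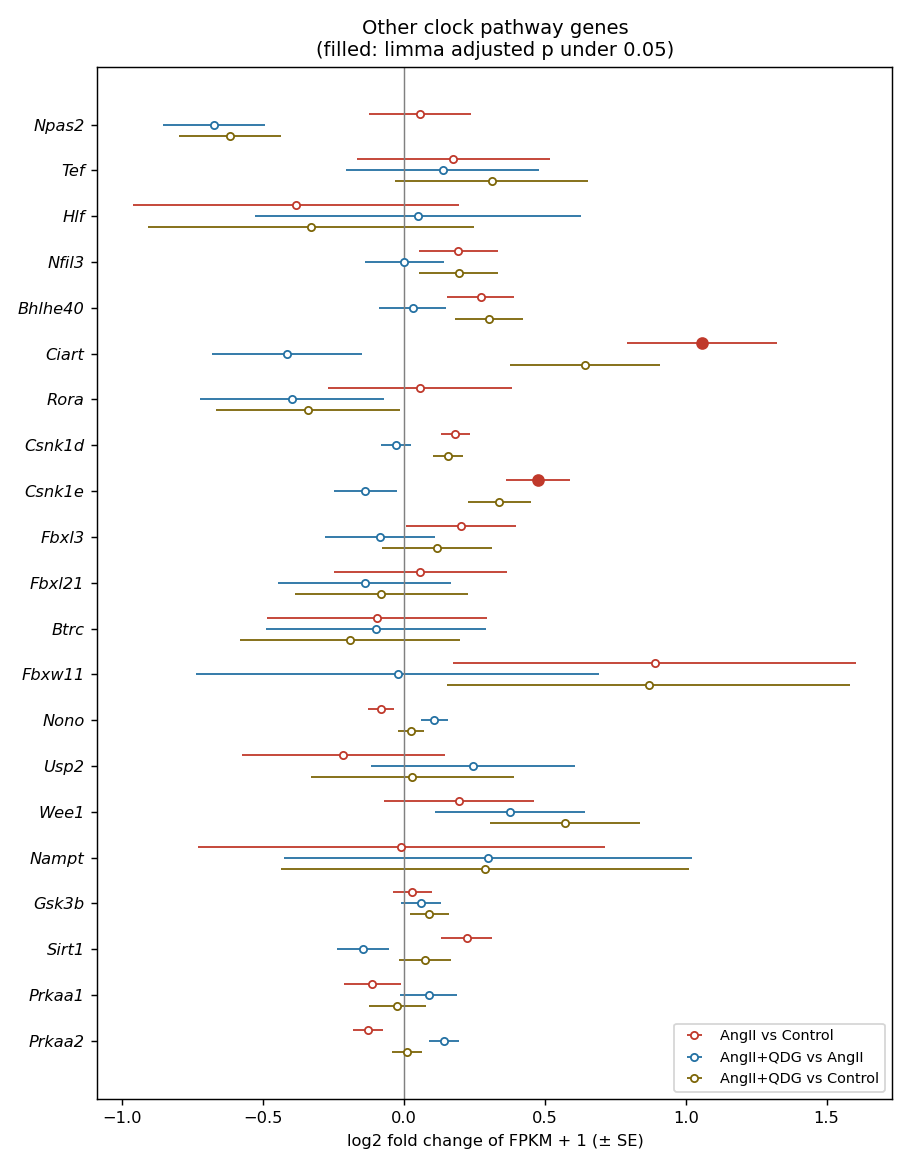
Log2 fold change of FPKM + 1 with its SE for the genes of the wider clock pathway named on the axis in the 3 comparisons, a filled point marking a limma adjusted p under 0.05. The filled points are Ciart at 1.06 and Csnk1e at 0.48, both in AngII versus Control.

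Per1 and other clock genes are also known targets of the glucocorticoid receptor, so 6 genes that respond to glucocorticoids were read beside them. Fkbp5, a co-chaperone of that receptor, was 33.9, 37.5, 31.9, 41.0 and 36.2 FPKM in Control, 47.3, 80.1, 210, 64.4 and 99.0 FPKM in AngII, and 36.1, 26.2, 37.0, 31.0 and 30.8 FPKM in AngII+QDG. Every AngII kidney stood above every kidney of the other groups. Its log2 difference was 1.26 (SE 0.28, limma adjusted p = 0.0226) in AngII versus Control and -1.42 (SE 0.28, limma adjusted p = 0.0255) in AngII+QDG versus AngII. The other five genes (Tsc22d3, Sgk1, Zbtb16, Klf9 and Errfi1) were not called, and Zbtb16 had a log2 difference of 1.11 (SE 0.38, limma adjusted p = 0.0959) in AngII versus Control. The 6 genes had median log2 differences of 0.03, -0.07 and 0.12 in the 3 comparisons. With only the 2 groups compared, the limma adjusted p of Fkbp5 was 0.0643 in AngII versus Control and 0.0863 in AngII+QDG versus AngII. Leaving out Control 1, Control 3 or AngII 5 took the limma adjusted p of Fkbp5 in AngII versus Control to between 0.0526 and 0.0552, and leaving out AngII 2, AngII 5 or AngII+QDG 2, 3, 4 or 5 took it in AngII+QDG versus AngII to between 0.0518 and 0.0675.

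To ask whether mice stood at different points of the cycle, the mean log2(FPKM + 1) of the day genes Nr1d1, Nr1d2, Dbp and Per3 minus that of Arntl and Clock was taken in each kidney. It was 2.59, 2.39, 2.41, 2.58 and 1.67 in Control, 2.47, 1.90, 1.65, 3.05 and 2.56 in AngII, and 3.07, 2.47, 2.22, 2.90 and 2.69 in AngII+QDG. The groups overlapped, and the lowest kidneys were AngII 3 and Control 5, where Dbp, one of the averaged genes, was lowest. The means were 2.33 ± 0.381, 2.32 ± 0.557 and 2.67 ± 0.339 log2 units (SD, n = 5 each). The difference of Per2 and Nr1d1 on the same scale, read because the peaks of these genes lie some hours apart, averaged -4.19 ± 0.430, -4.78 ± 0.699 and -4.66 ± 0.271 log2 units (SD, n = 5 each). The genes did not weigh equally in these contrasts. With the group means removed, the first had r = 0.823 with Dbp, -0.772 with Clock, 0.681 with Nr1d2, 0.524 with Per3 and -0.0446 with Nr1d1. The second had r = 0.946 with Per2 and 0.183 with Nr1d1, so it mostly followed Per2, a gene near 0 in several kidneys. In all 15 kidneys each of the day genes stood above Arntl. Without a collection hour in the sources used here, a difference in hour between mice cannot be told apart from a difference between the mice themselves.

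**Figure D4:**
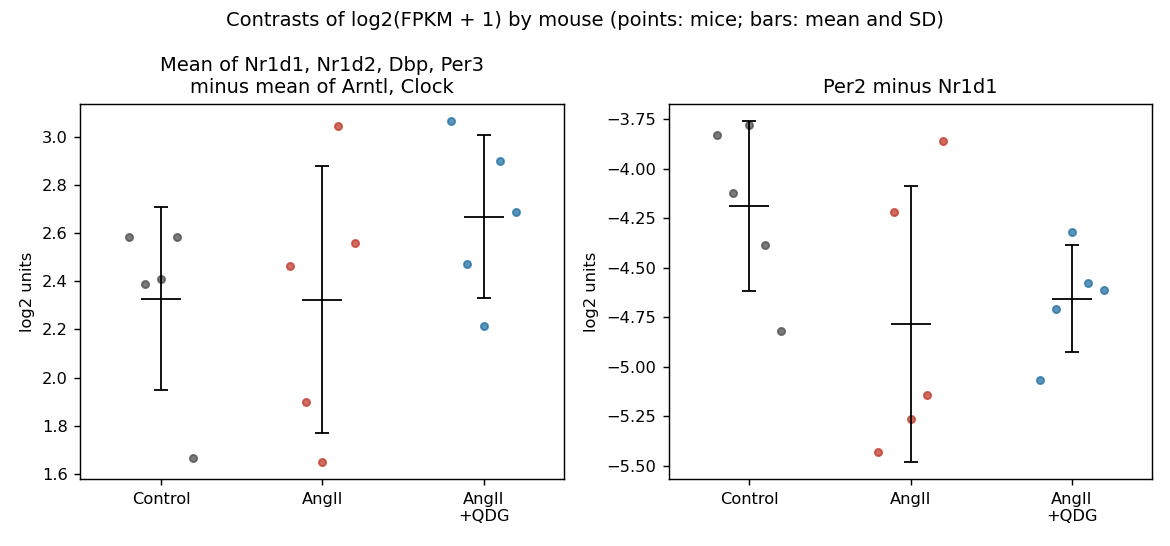
Both contrasts of log2(FPKM + 1) in each kidney in log2 units, with 5 mice a group, the mean and the SD, on axes that do not start at 0. In the left panel Control 5 (1.67) and AngII 3 (1.65) lie lowest, and the 3 groups overlap in both panels.

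If mice differed in phase, genes of 1 phase would vary together and genes of opposite phase against each other. The 45 pairs of the 10 genes were correlated over the 15 kidneys after the group means were removed, with permutation tests of mice within groups, two-sided. By Pearson's r, 0 of 45 pairs passed after adjustment and 4 had an unadjusted permutation p under 0.05, and by Spearman's rho 1 pair passed. That pair was Nr1d2 and Dbp, with r = 0.706 (permutation p = 0.00325, adjusted p = 0.146) and rho = 0.771 (permutation p = 0.00067, adjusted p = 0.0302). Without the 2 kidneys farthest from the median of Nr1d2, r was 0.665. With the group means kept, r was 0.690 and rho was 0.743, and the call by Spearman's rho was lost (permutation p = 0.00232, adjusted p = 0.104). Per3 and Dbp had r = 0.605 (permutation p = 0.0501, adjusted p = 0.451) and rho = 0.432 (permutation p = 0.138, adjusted p = 0.876), and r was 0.414 without the 2 kidneys farthest from the median of Per3 and 0.318 without Control 5.

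The pairs of Arntl or Clock with a day gene were read as pairs of opposite phase. None of them passed the adjustment, which does not show that they were unrelated. Arntl and Nr1d1 had r = 0.381 (permutation p = 0.241, adjusted p = 0.838) and rho = 0.436 (permutation p = 0.135, adjusted p = 0.876), a positive value that was 0.198 for r without AngII+QDG 3. Arntl and Dbp had r = -0.297 (permutation p = 0.329, adjusted p = 0.847) and rho = -0.307 (permutation p = 0.332, adjusted p = 0.876), and r was -0.179 without AngII+QDG 1, -0.182 without AngII 4 and -0.155 with the group means kept. Clock had negative r with Nr1d2 (-0.516) and Dbp (-0.473), with adjusted permutation p-values of 0.715 for both. Among pairs not taken as opposite in phase, Per1 had r = 0.468 with Nr1d1 (permutation p = 0.00891, adjusted p = 0.200) and r = -0.604 with Cry2 (permutation p = 0.0262, adjusted p = 0.349), and neither passed the adjustment. Per2 and Nr1d1, the genes of the second contrast, whose peaks lie some hours apart, had r = 0.491 (permutation p = 0.031, adjusted p = 0.349) and rho = 0.354 (permutation p = 0.151, adjusted p = 0.876). Of the 45 values of r, 24 were positive and 21 negative.

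**Figure D5:**
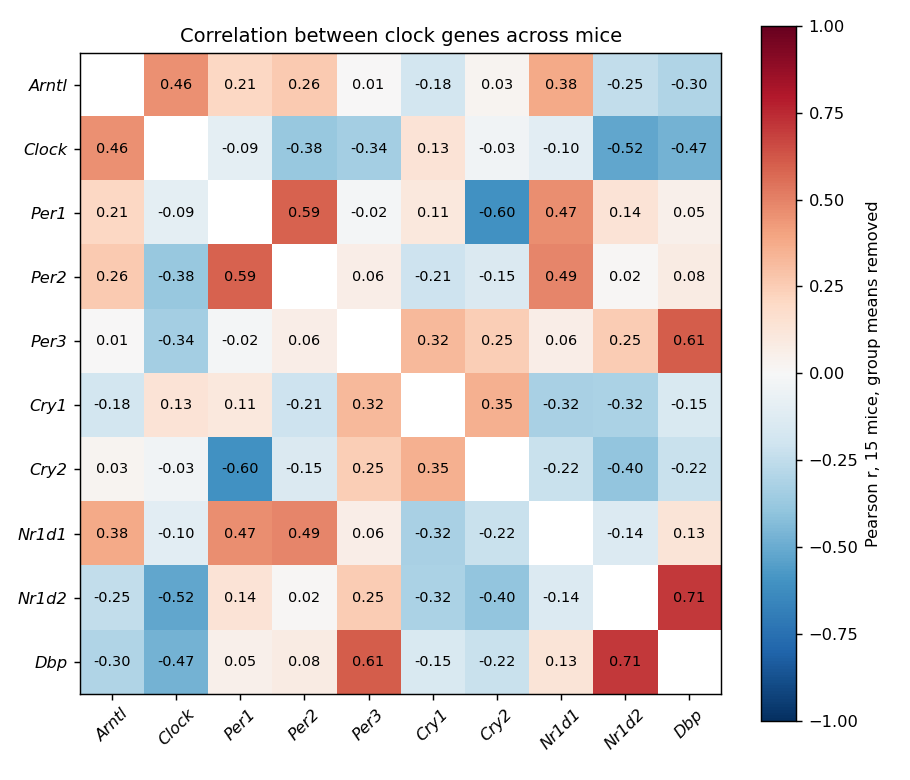
Pearson's r between the 10 clock genes over 15 kidneys after the group means were removed, red for positive and blue for negative values. The strongest pair is Nr1d2 with Dbp at 0.71, and Arntl with Nr1d1 is positive at 0.38.

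Across all genes outside the clock lists, the contrast of day genes and Arntl with Clock was followed most closely by Keg1 (r = 0.885), Tulp3 (0.870), Slc22a28 (0.861), 2610528J11Rik (0.859) and Usmg5 (0.857). The lowest values were those of Utp20 (-0.899), Rgcc (-0.832), Sh3tc2 (-0.817), Acly (-0.812) and Dusp16 (-0.799). These r are over 15 kidneys with the group means removed, they are extremes of 12366 genes from the same libraries, and they are a description. Of the wider clock pathway, Csnk1d (-0.664), Prkaa1 (0.600) and Nfil3 (-0.553) lay farthest from 0.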

How the data were processed

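Kidney RNA of 15 mice was depleted of ribosomal RNA and sequenced in paired ends from libraries of a kit that does not mark strand. The authors deposited 1 table per kidney of FPKM per transcript, with Ensembl identifiers and identifiers of assembled transcripts that have no gene name. The column carries no stated unit. It was read as FPKM because, with transcript lengths of GENCODE release 21 of the mouse, at least 98.4% of low values were whole multiples of 1 read within 0.05, which also gave the estimated reads and the depth per kidney. These estimates cover counting error only. The submitters' processing notes name mm10 and limma, and the aligner, assembler and annotation are not given in the sources used here.

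The Control files list 41477 transcripts and those of both treated groups 42310, for a reason not given in the sources used here. Of 40054 transcripts listed in all files, the 28863 annotated ones were summed to 13933 genes. The 12366 genes that reached 1 FPKM in 5 or more mice were compared on log2(FPKM + 1), which understates changes of low genes, by limma 3.58.1 in R 4.3.3 with a trend, a mean per group and 12 residual degrees of freedom, with Benjamini-Hochberg adjustment over all genes. Correlations used 100000 permutations within groups (scipy 1.17.1). Alternatives were another pseudocount (0.1), no filter, 2 scalings, other sums of transcripts, no trend, only the 2 groups compared, and each mouse left out. One alternative was chosen after seeing the data, for Per2, which fell under the filter without Control 1, 2 or 3 or AngII 2 or 5 and was then fitted with the genes kept over all mice. The fits were tested on simulated data. The 10 genes, the gene lists and the tests were chosen with earlier results of these data known. Genes named were the 10 clock genes, list genes that passed or had the smallest unadjusted p-values (at most 6 a comparison), the 5 highest and 5 lowest correlations with the contrast, and clock gene transcripts averaging at least 1 FPKM. One gene of the pathway list is counted but not reported here.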

Additional observations from a re-analysis of the deposited data

Results flagged for a closer look

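In 5 of 36 sets of 5 mice examined, 1 kidney stood apart from the others of its group by Dixon's test. Chance flags about 1 in 20 independent sets, and these sets are not independent, since the contrasts are built from the same genes. Control 5 had the lowest Per3 of its group at 0.856 FPKM, against 3.22 FPKM in the next Control mouse, and also the lowest contrast of day genes with Arntl and Clock, at 1.67 log2 units against 2.39 in the next. AngII 3 had the highest Cry1 of its group at 2.17 FPKM and the lowest Nr1d2 at 5.80 FPKM, against 13.9 FPKM in the next. AngII+QDG 3 had the lowest Nr1d2 of its group at 11.7 FPKM, against 17.1 FPKM in the next.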

How the results depend on the processing

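The analysis was unpaired because the groups held different mice, divided at random. In AngII versus Control, genes called by limma numbered 735 (612 higher, 123 lower), 472 (201 higher, 271 lower) after median scaling, 493 (227 higher, 266 lower) after quantile normalization, 408 with protein-coding transcripts only, 456 with only the 2 groups compared, and 338 to 797 with 1 mouse left out. In AngII+QDG versus AngII they numbered 224 (65 higher, 159 lower), 184 (72 higher, 112 lower) after median scaling, 194 (97 each way) after quantile normalization, 58 with only the 2 groups, and 53 to 250 with 1 mouse left out. In AngII+QDG versus Control they numbered 16 (12 higher, 4 lower), 20 (8 higher, 12 lower) after median scaling, 15 (8 higher, 7 lower) after quantile normalization, 80 with all listed transcripts, 6 with protein-coding transcripts only, 4 with only the 2 groups, and 0 to 110 with 1 mouse left out. The cause was not tested.

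Of the clock genes, the 1 called in AngII versus Control became 0 after either scaling and with protein-coding transcripts only, and 0 to 1 with 1 mouse left out, also in AngII+QDG versus AngII. Of the pathway, 2 genes (Ciart and Csnk1e) were called in AngII versus Control. After either scaling neither was and 1 other gene, Prkaa2, was, with protein-coding transcripts only the 1 called was Ciart, and the count was 0 with only the 2 groups and 0 to 2 with 1 mouse left out (0 to 1 in AngII+QDG versus AngII). Pairs correlated by Pearson's r numbered 0, and 0 to 2 with 1 mouse left out. With a pseudocount of 0.1, the log2 differences of Per2, Cry1, Ciart and Npas2 for which it is given above grew by over 1.5 times, and the contrast means were 3.31, 3.13 and 3.55 in Control, AngII and AngII+QDG, and those of Per2 minus Nr1d1 -5.60, -6.82 and -6.86. Uncalled log2 differences that crossed 0 were those of Per3 (0.0619 with protein-coding transcripts, -0.32 to 0.0547 with 1 mouse left out), Nr1d2 (-0.32 to 0.0266), Dbp (-0.0916 to 0.32) and Npas2 (-0.0545 after quantile normalization, -0.0346 after median scaling, -0.0808 to 0.21) in AngII versus Control, Per2 (-0.38 to 0.0182, above 0 without AngII 5) and Cry1 (6.9e-05 after median scaling, -0.0931 to 0.0924) in AngII+QDG versus AngII, and Cry2 (-0.0288 to 0.57) in AngII+QDG versus Control. Estimated reads per kidney were fewest for Arntl (0 to 339), Cry1 (94 to 520) and Per2 (2 to 882).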
